A study of Drosophila melanogaster with 2 samples.

Results

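The genes described here are the cytosolic glutathione transferases and the UDP-glycosyltransferases of the fly, 2 families of enzymes that attach a small polar group to other molecules. They were found by name. A gene was taken when its symbol in the platform annotation, updated by gene ID, began with Gst and a capital letter or with Ugt and a digit. That gave 67 genes among the 10844 named on the array, 34 glutathione transferases and 33 UDP-glycosyltransferases. The letter after Gst gives the class (D delta, E epsilon, O omega, S sigma, T theta, Z zeta) and the number after Ugt gives the family. The rule itself uses no measured value, apart from keeping the probe set of highest mean signal for a gene with several. It was set with earlier results of these data known. Of 70 such genes in the RefSeq gene table, GstT1, Ugt35D1 and Ugt50B3 were not represented by a probe set naming 1 gene and were not analysed here.

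Gene expression was measured with Affymetrix arrays in late Drosophila melanogaster embryos, on 1 array of a yw stock and 1 array of homozygous tdf mutants, to find genes that depend on Apontic (TDF), the transcription factor encoded by apt. Embryos were incubated on apple juice plates to 16 h after egg laying, at 25 °C, and the mutants were recognised with the GFP-marked balancer chromosome CyOact-GFP. The yw stock carries mutations in the body colour gene yellow and the eye colour gene white, and any other difference between the stocks is confounded with the tdf genotype, so the causes cannot be told apart. The sources used here do not give the tdf allele or the number of embryos pooled for each extract. With 1 array for each genotype there was no replicate, so no value below has an error or a test. The array labelled tdf is called the tdf array, and higher and lower always mean the signal on the tdf array against that on the yw array.

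Glutathione transferases join the tripeptide glutathione to reactive compounds, among them insecticides and products of lipid oxidation, and some also act as peroxidases or isomerases. UDP-glycosyltransferases of insects transfer a sugar, mostly glucose from UDP-glucose, to small lipophilic molecules such as plant toxins, pigments and hormones, and most of them sit in the membrane of the endoplasmic reticulum. Both families are known for high expression in the midgut, fat body and Malpighian tubules, the tissues in which flies clear foreign compounds. In insects the delta and epsilon classes of glutathione transferases have expanded by tandem duplication, as have several Ugt families.

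The values are MAS5 signals, which are intensities on a linear scale. Signals of different probe sets are not comparable as amounts of RNA, so each gene is compared with itself on the other array. Where signals of a marker list are summed, the sum is weighted towards its brightest probe sets and includes genes below the floor. A floor of 97.3, the 40th percentile over gene probe sets, replaced lower signals, and the log2 ratio of tdf over yw was then formed. A gene is called measured when it reached the floor on at least 1 array, and a ratio with 1 signal below the floor bounds the size of the difference, given as "at least". All probe sets together had a median signal of 153 (yw) and 154 (tdf). The gene apt itself had signals of 979 and 1051, a log2 ratio of 0.10, which does not check the label because the lesion is not given. Where a gene had several probe sets above the floor (278 genes), their log2 ratios had a within-gene SD of 0.53. That SD measures how far probe sets of a gene disagree on the same arrays, not the error between arrays or biological variation. Signals of the 3' end exceeded those of the 5' end by 14.9-fold to 56.6-fold over 4 control transcripts and both arrays. This excess differed between the yw and tdf arrays. It was higher on the tdf array for ACTIN (32.7 and 52.3), eIF-4a (45.5 and 56.6) and 18S rRNA (14.9 and 32.2), and lower for GAPDH (22.8 and 17.3). Spiked-in poly(A) RNA controls were lower on the tdf array (median log2 ratio -0.91 over 6 controls). Of 4 yeast controls, 3 were above the floor on that array (highest signal 223) and none on the yw array (highest 64.2). The part of these array differences in the ratios below was not tested.

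Of the 67 genes, 47 were measured and 5 of these were at least 2-fold apart between the arrays, against 9.79% of all measured genes. The glutathione transferases GstE2 and GstD3 and the UDP-glycosyltransferases Ugt305A1 and Ugt36A1 were higher on the tdf array, and Ugt316A1 was lower. The glutathione transferases were measured more completely, with 28 of 34 genes (82.4%), than the UDP-glycosyltransferases, with 19 of 33 (57.6%), against 70.4% of all genes. Among glutathione transferases 2 of 28 (7.14%) were at least 2-fold higher and none at least 2-fold lower. Among UDP-glycosyltransferases 2 of 19 (10.5%) were at least 2-fold higher and 1 (5.26%) lower. On the whole array, 3.60% of the 7639 measured genes passed the limit upwards and 6.19% downwards. With families of this size 1 gene moves the share by several percentage points, so these counts are not a result about either family.

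**Figure D1:**
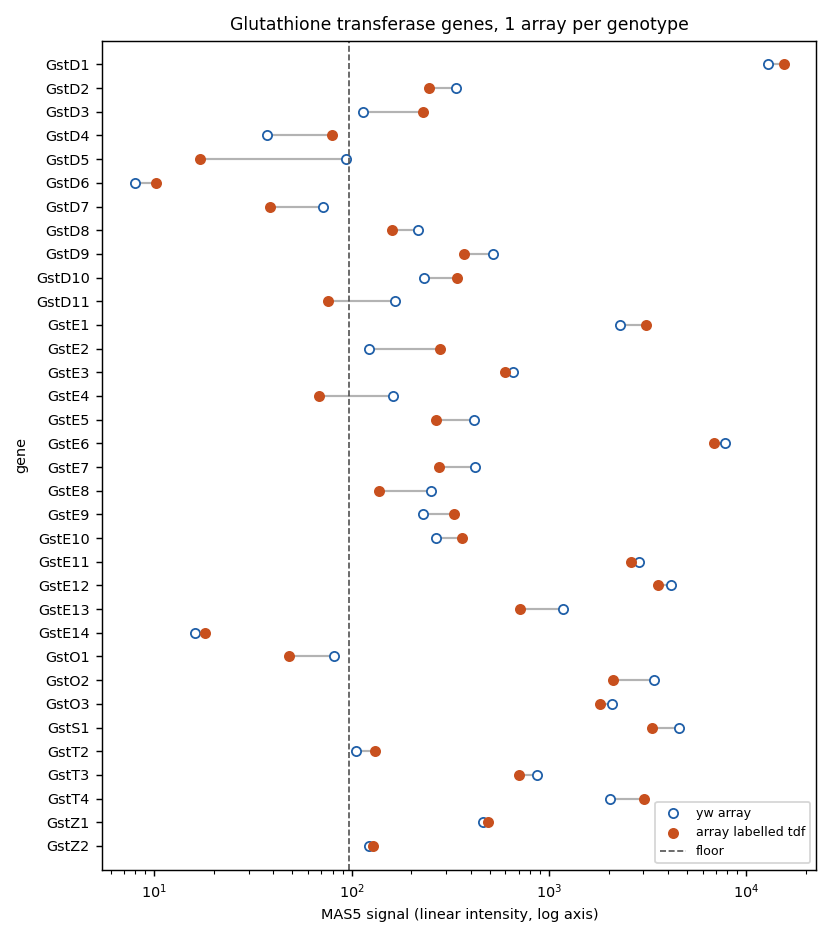
Signals of the 34 glutathione transferase genes on the yw array (open circles) and the tdf array (filled circles), on a log axis of MAS5 signal, with the floor of 97.3 as a dashed line. Most pairs lie close together, GstE2 and GstD3 are the measured genes with the widest gap to the right, and GstD4 to GstD7, GstE14 and GstO1 lie left of the floor on both arrays.

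Delta class glutathione transferases include GstD1, which is known to break down the insecticide DDT and whose promoter is widely used as a reporter of oxidative stress. The signals of GstD1 were 12836 (yw) and 15486 (tdf), for a log2 ratio of 0.27. Both signals are far above the floor and the difference is small, and under quantile normalisation it turned to -0.03. GstD3 had 114 and 229, 2.01-fold higher, just past the limit, ranking 269 from the top of the 7639 measured genes. Its yw signal lay just above the floor. GstD10, with 231 and 341, was higher by a log2 ratio of 0.56. The other 4 measured members were lower, each by less than 2-fold. GstD2 had 339 and 246 (log2 ratio -0.47), GstD8 had 217 and 159 (-0.45) and GstD9 had 517 and 371 (-0.48). These 3 genes had nearly the same ratio. GstD11 had 166 and, below the floor, 75.5, so it was at least 1.70-fold lower. The remaining delta genes GstD4, GstD5, GstD6 and GstD7 were below the floor on both arrays, with signals from 7.96 to 93.8. In all, 3 of 7 measured delta genes were higher and 4 lower, with a median log2 ratio of -0.45, which was -0.22 under quantile normalisation and -0.09 over the 6 genes above the floor on both arrays.

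Epsilon class members were the most completely measured of the 2 large classes, 13 of 14 reaching the floor. With the floor used here GstE2 had the highest ratio of the 47 measured genes, with 122 (yw) and 280 (tdf), 2.29-fold higher and 137 from the top of the measured genes. It too was close to the floor on the yw array, and with a floor at the 60th percentile (237) its log2 ratio was bounded at 0.24 or more in place of 1.19. When the floor was lowered to the 25th percentile, Ugt307A1, a bound here, had the higher log2 ratio, 1.32. Higher by less were 3 others. GstE1 had 2292 and 3091 (log2 ratio 0.43), GstE10 had 268 and 361 (0.43) and GstE9 had 228 and 328 (0.52). The other 9 measured epsilon genes were lower, none by 2-fold. GstE6, the brightest probe set of the class, had 7811 and 6819, a log2 ratio of -0.20. GstE8 had 252 and 138, 1.83-fold lower, and GstE13 had 1177 and 708, 1.66-fold lower. Next came GstE5 (417 and 267, log2 ratio -0.64) and GstE7 (419 and 276, -0.60). These 2 genes differed to nearly the same extent, but GstE6, which lies between them in the cluster, did not (-0.20). GstE4 had 162 and, below the floor, 68.6, at least 1.66-fold lower. Lowering the floor to the 25th percentile made it 2.36-fold lower, below GstE8. GstE3 (660 and 600), GstE11 (2857 and 2614) and GstE12 (4168 and 3545) differed by log2 ratios between -0.23 and -0.13. GstE14, also called Noppera-bo and needed for ecdysteroid synthesis in the prothoracic gland, was below the floor on both arrays at 16.1 and 18.1. The median log2 ratio of the class was -0.20.

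The remaining classes hold few genes. Omega enzymes differ from the others in using a cysteine in the active site. GstO2 had 3385 and 2105 in its brightest probe set, 1.61-fold lower, and GstO3 had 2082 and 1807, a log2 ratio of -0.20. GstO2 is the one glutathione transferase read by 3 probe sets, and they disagreed. Its dimmer probe set of suffix r had 323 and 69.8, at least 3.32-fold lower, while its plain probe set had 181 and 294, 1.62-fold higher. The direction of GstO2 therefore depends on the probe set, and the brightest one carries the suffix s, which marks probes that can match more than 1 transcript. GstO1 was below the floor on both arrays. GstS1, the sigma class enzyme that detoxifies aldehydes from lipid oxidation and is abundant in adult flight muscle, had 4564 and 3334, 1.37-fold lower. In the theta class GstT4 had 2024 and 3022, 1.49-fold higher, GstT2 had 105 and 132 (log2 ratio 0.32) and GstT3 had 867 and 703 (-0.30). Zeta enzymes act in tyrosine breakdown as maleylacetoacetate isomerases. GstZ1 had 462 and 491 and GstZ2 had 123 and 129, log2 ratios of 0.09 and 0.07, so both were about level between the arrays.

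**Figure D2:**
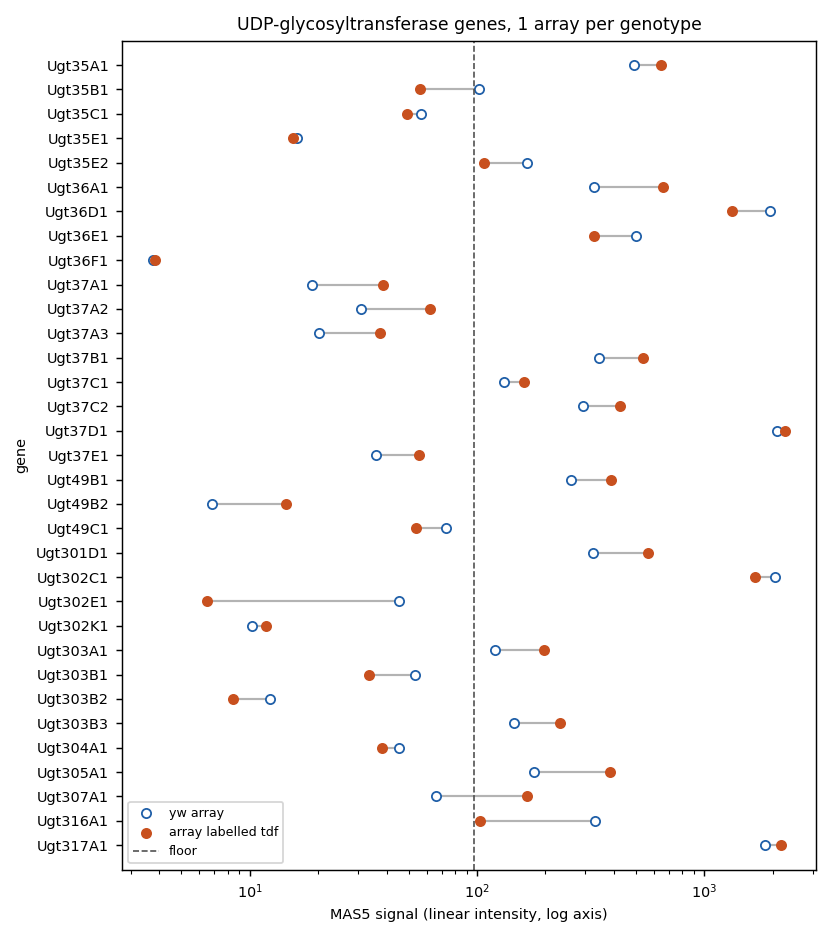
Signals of the 33 UDP-glycosyltransferase genes on the yw array (open circles) and the tdf array (filled circles), on a log axis of MAS5 signal, with the floor of 97.3 as a dashed line. 14 genes lie left of the floor on both arrays, and among the measured genes the filled circle is mostly on the right, with Ugt316A1 as the widest gap in the other direction.

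Among the UDP-glycosyltransferases, 3 genes passed the 2-fold limit. Over the 17 genes of the family above the floor on both arrays the log2 ratios had an SD of 0.73, against 0.55 for 26 glutathione transferases and 0.59 for all genes. That SD includes Ugt316A1 at -1.68 and was not computed without it, so a wider spread of the family is not shown. Ugt316A1 had 330 (yw) and 103 (tdf), 3.20-fold lower. This was the largest difference of any of the 47 measured genes and ranked 101 from the bottom of the array, and its lower signal was just above the floor. With a floor at the 60th percentile its log2 ratio was bounded at -0.48 or lower in place of -1.68. Ugt305A1 had 178 and 385, 2.15-fold higher. It is read by another probe set, which had 67.1 and 116 and was at least 1.19-fold higher, so both pointed the same way. Its brighter probe set carries the suffix s and the other the suffix r, so Ugt305A1 has no value with plain probe sets only. Ugt36A1, also called Dot (Dorothy) and known for an enhancer that is active in the heart and blood cell lineage, had 327 and 658, 2.01-fold higher. Its log2 ratio was 1.01, and centring on the median of all genes brought it to 0.97, under the 2-fold limit.

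Members of the numbered Ugt families did not all go one way. All 4 measured Ugt37 genes were higher. Ugt37B1 had 345 and 538 (1.56-fold), Ugt37C2 had 292 and 425 (1.46-fold), Ugt37C1 had 132 and 162 (1.23-fold) and Ugt37D1 had 2091 and 2261 (1.08-fold). The other 4 of that family, Ugt37A1, Ugt37A2, Ugt37A3 and Ugt37E1, were below the floor on both arrays. The Ugt36 family was split, with Ugt36A1 higher and the neighbouring genes Ugt36D1 (1939 and 1324, log2 ratio -0.55) and Ugt36E1 (499 and 327, -0.61) lower. Ugt36F1, the third neighbour, was far below the floor at 3.78 and 3.85. In the Ugt35 family Ugt35A1 had 488 and 645 (log2 ratio 0.40) and Ugt35E2 had 166 and 108 (-0.62). Ugt35B1 was barely measured, with 102 and, below the floor, 56.1, at least 1.05-fold lower, and its dimmer probe set did not reach the floor on either array. Ugt35C1 and Ugt35E1 were below the floor on both arrays.

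The families with a single measured gene went both ways, among them those of Ugt305A1 (2.15-fold higher) and Ugt316A1 (3.20-fold lower), given above. Ugt301D1 had 324 and 566, 1.75-fold higher, and Ugt49B1 had 258 and 387, a log2 ratio of 0.58. Ugt307A1 had 66.0, below the floor, and 165, at least 1.70-fold higher. Ugt317A1, with 1840 and 2166, was higher by a log2 ratio of 0.23, and Ugt302C1, with 2037 and 1675, was lower by a log2 ratio of -0.28. In the Ugt303 family, Ugt303A1 had 120 and 198 (1.65-fold higher) and Ugt303B3 had 145 and 231 (1.59-fold higher), nearly the same ratio. The signals of Ugt303A1, Ugt307A1 and Ugt37C1 on the tdf array did not exceed the highest yeast control there, 223. The same held for GstT2 and GstZ2 among the glutathione transferases with a ratio above 0. The tdf signals of GstD3 (229) and Ugt303B3 (231) lay just above that control. Ugt304A1, Ugt302E1, Ugt302K1, Ugt303B1, Ugt303B2, Ugt49B2 and Ugt49C1 were below the floor on both arrays.

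**Figure D3:**
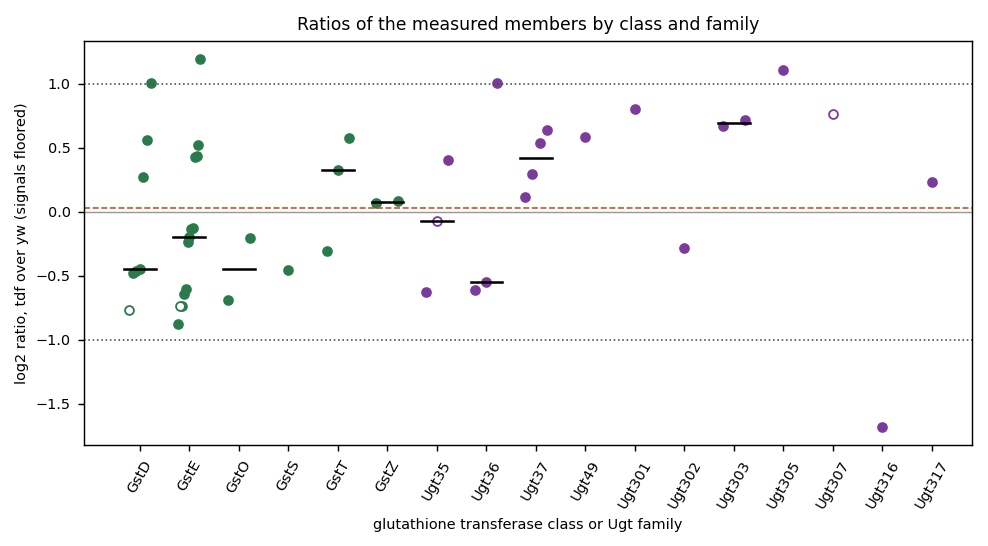
Log2 ratio (tdf over yw, signals floored) of each of the 47 measured genes by glutathione transferase class (green) and Ugt family (purple), with bounds as open circles, class medians as black bars, the 2-fold limits dotted and the median of all measured genes (0.03) as an orange dashed line. GstD, GstE, GstO, Ugt35 and Ugt36 medians lie below 0, and GstT, GstZ, Ugt37 and Ugt303 medians above it. All 4 Ugt37 points lie above 0, and Ugt316A1 stands alone at -1.68.

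As groups, the 2 families lay on different sides of the array's median. The median log2 ratio was -0.20 for the 28 measured glutathione transferases and 0.40 for the 19 UDP-glycosyltransferases, against 0.03 for all 7639 measured genes, with 2 bounds in each family taken at their bound. A ratio above 0 was found for 11 of 28 glutathione transferases (39.3%) and 13 of 19 UDP-glycosyltransferases (68.4%), against 52.4% of all measured genes. At a limit of 1.5-fold, 7 glutathione transferases (25.0%) were lower and 2 higher. They were GstD11, GstE4, GstE5, GstE7, GstE8, GstE13 and GstO2 on the lower side, and GstD3 and GstE2 on the higher side. At the same limit 7 UDP-glycosyltransferases (36.8%) were higher and 3 lower, with Ugt301D1, Ugt303A1, Ugt303B3, Ugt305A1, Ugt307A1, Ugt36A1 and Ugt37B1 higher. The share of all measured genes past that limit was 13.2% upwards and 15.3% downwards. Both medians kept their sign in each of the 9 alternatives tried for them, from -0.24 to -0.17 for glutathione transferases and from 0.11 to 0.50 for UDP-glycosyltransferases. The lowest of the latter, 0.11, came from the 5 genes whose signals averaged 500 or more. That alternative and the one of genes above the floor on both arrays were chosen after the data were examined. All 9 reuse the same 2 arrays, and the other fold limits are not among them. Members of a family are not replicates, and the difference between the family medians was not tested.

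**Figure D4:**
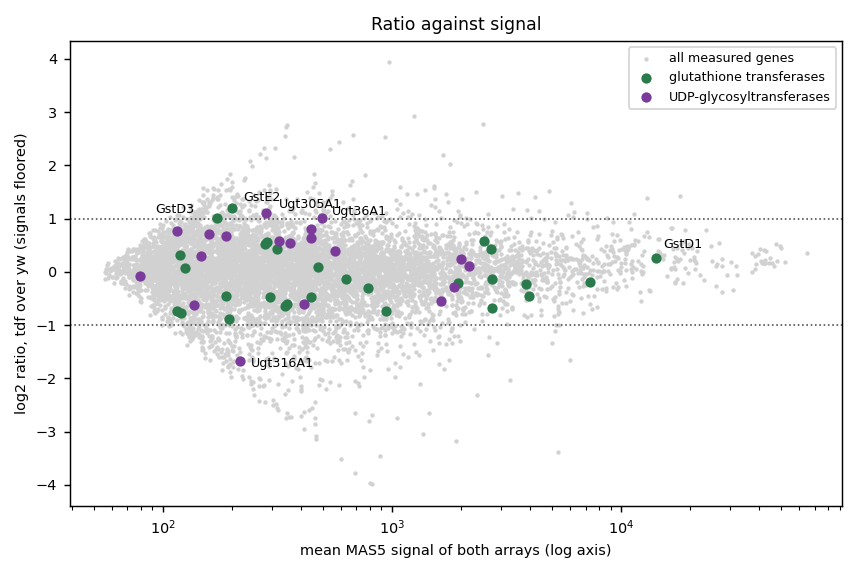
Log2 ratio (tdf over yw, signals floored) against the mean MAS5 signal of both arrays on a log axis, for all 7639 measured genes (grey), glutathione transferases (green) and UDP-glycosyltransferases (purple), with the 2-fold limits dotted. The 5 named genes past a limit all have a mean signal below 500, Ugt36A1 only just (493), and GstD1, the rightmost, lies near 0.

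All 5 genes at least 2-fold apart had a mean signal below 500. This limit was chosen after the data were examined, and Ugt36A1 lay just below it at 493, so the split depends on the limit. Below 500, 2 of 16 glutathione transferases and 2 of 14 UDP-glycosyltransferases were at least 2-fold higher, against 4.16% of 4644 measured genes, and 1 UDP-glycosyltransferase was lower, against 6.65%. In either direction the background there was 10.8%. Above a mean signal of 500, where 2.74% of 2995 genes passed the limit upwards, 5.48% downwards and 8.21% in either direction, none of 12 glutathione transferases and none of 5 UDP-glycosyltransferases was 2-fold apart. The brighter glutathione transferases lay between log2 ratios of -0.73 (GstE13) and 0.58 (GstT4). Of these, 3 of 12 (25.0%) were above 0, against 51.7% of all genes in that range. Their SD was 0.40, against 0.58 for all genes above the floor in that range. With 12 genes neither a lean to 1 side nor a narrower spread is shown. The brighter UDP-glycosyltransferases lay between -0.55 (Ugt36D1) and 0.40 (Ugt35A1).

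**Figure D5:**
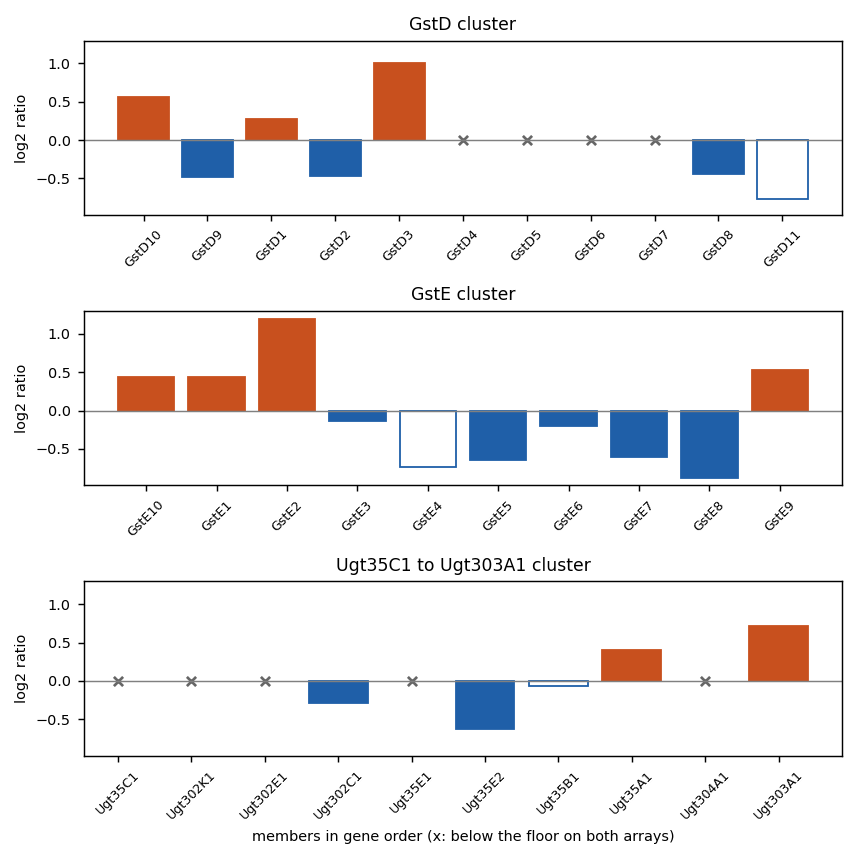
Log2 ratio (tdf over yw) of members in the order in which they lie along the chromosome, for the GstD cluster, the GstE cluster and the cluster from Ugt35C1 to Ugt303A1, with orange bars above 0, blue bars below 0, open bars for bounds and crosses for genes below the floor on both arrays. In the GstE cluster GstE3 to GstE8 are all below 0 and GstE10, GstE1, GstE2 and GstE9 above it, whereas signs alternate from GstD10 to GstD3.

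Many members lie next to each other on the chromosome, in the gene order of the RefSeq table, where clusters were counted as members with at most 2 other genes between them. The GstE cluster of 10 genes was measured throughout. Its first 3 genes, GstE10, GstE1 and GstE2, were higher, the next 6, GstE3 to GstE8, were lower, and the last, GstE9, was higher. In the GstD cluster of 11 genes, by contrast, neighbours went opposite ways. GstD10, GstD1 and GstD3 were higher and GstD9 and GstD2, which lie between them, were lower, followed by GstD4 to GstD7 below the floor and GstD8 and GstD11 lower. In the cluster of 10 Ugt genes from Ugt35C1 to Ugt303A1, 5 genes were measured, with Ugt302C1, Ugt35E2 and Ugt35B1 lower and Ugt35A1 and Ugt303A1 higher. Over all clusters, 15 pairs of direct neighbours were both measured, of which 9 had ratios of the same sign and 6 of opposite sign, with a median difference of 0.47 in log2 ratio. Many pairs share a gene, and other pairs of genes on the array were not counted. These numbers and the sign patterns of the clusters are therefore not a result about neighbours. The widest step was between GstD2 and GstD3, 1.47. Probe sequences were not used here, so whether near-identical neighbours share signal was not tested.

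Genes that supply or accompany these enzymes were taken from 7 lists. Glutamate-cysteine ligase catalyses the first step of glutathione synthesis, joining glutamate to cysteine before glutathione synthetase adds glycine. Its catalytic subunit gene Gclc had 199 and 253 and its modifier subunit gene Gclm had 3102 and 3550, log2 ratios of 0.34 and 0.19. Ggt-1, a gamma-glutamyl transferase that breaks glutathione down, had 893 and 531, 1.68-fold lower. Mgstl, the microsomal glutathione transferase, which lies outside the naming rule, had 3079 and 6145 in its brightest probe set, a log2 ratio of 0.997 and so just under the 2-fold limit. Its plain probe set had 309 and 660, 2.13-fold higher, and the one of suffix i had 365 and 612, 1.68-fold higher, so all 3 pointed the same way. The chloride channel relative Clic, which has a glutathione transferase fold, had 6530 and 3685, 1.77-fold lower, and sepia (se), an omega class enzyme of eye pigment synthesis, did not reach the floor on either array. The 7 antioxidant enzyme genes measured had log2 ratios from -0.42 (catalase, Cat) to 0.47 (Sod2).

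The known regulators of glutathione transferase induction had low signals or small ratios. The transcription factor gene cnc was below the floor on both arrays, at 75.6 and 63.2. Its inhibitor Keap1 had 164 and, below the floor, 73.0, at least 1.69-fold lower, and its partner maf-S had 2823 and 2926. The xenobiotic receptor gene Hr96 had 262 and 232. For the sugar donors, sgl, the UDP-glucose dehydrogenase, had 1325 and 2240, 1.69-fold higher, whereas UGP, which makes UDP-glucose, had 1102 and 901 and mmy, which makes UDP-N-acetylglucosamine, had 3782 and 4149. The 5 ABC transporter genes that can export conjugates or drugs were all measured. Of these, 4 had log2 ratios from -0.03 (Mdr49) to 0.32 (Mdr50), and Mrp4 had 116 and, below the floor, 81.6, which bounds its log2 ratio at -0.26 or lower. The microsomal electron carrier Cyt-b5 had 3465 and 3591, and the epoxide hydrolase Jheh2 had 403 and 323. None of the 27 measured genes on these 7 lists was at least 2-fold apart in its brightest probe set, against 9.79% of all measured genes, and with so few genes this count is not a result about the lists.

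Markers of the stage and of the tissues that use these enzymes also differed between the arrays. In whole embryos fewer cells of a type and less RNA per cell cannot be told apart. Of 12 midgut genes 10 were measured, with a median log2 ratio of 0.76. Mal-A2, Mal-A4, yip7 and zetaTry were at least 2-fold higher and epsilonTry 3.26-fold lower. On the whole array 3.60% of measured genes were at least 2-fold higher and 6.19% lower. GATAe was about level (log2 ratio -0.03). Mal-A1 (0.30), mex1 (0.59) and Mal-A3 (0.92) were higher by less than 2-fold, and Jon25Bi was at least 1.38-fold higher. The signals of the list summed to 5584 (yw) and 8822 (tdf). Amy-d and thetaTry were below the floor on both arrays. Fat body genes had a median of 0.08 over 9 measured of 10, with Lsd-2 3.56-fold higher and Gnmt 2.38-fold lower, summed signals of 21210 and 22497, and Fbp2 below the floor on both arrays. Of 7 Malpighian tubule genes 3 were measured, with a median of -0.13 and summed signals of 768 and 891. The gene ct was at least 2.24-fold higher, Best1 and Lkr had log2 ratios of -0.21 and -0.13, and Alp4, Dh44-R2, Irk3 and Kr were below the floor on both arrays. All 11 genes of late differentiation were above the floor on both arrays, with a median of 0.27, TwdlD 2.68-fold higher and summed signals of 136141 and 186850. Of these, 8 were higher, where 52.4% of all measured genes had a ratio above 0. The 3 lower ones were kkv (log2 ratio -0.34), elav (-0.15) and nSyb (-0.44). Of 13 maternal and early embryo genes 10 were measured, with a median of -2.46 when 5 bounds are taken at their bound and -0.43 over the 5 genes above the floor on both arrays. Their list had summed signals of 21056 and 6045, with osk, pgc and png below the floor on both arrays. In that list 6 of the 10 measured genes were at least 2-fold lower, against 6.19% of all measured genes. They were CycB, CycB3, smg, swa, twe and bcd. The other 4 measured were under the limit. Among them gcl was higher (log2 ratio 0.18), alphaTub67C about level (-0.02), gnu lower (-0.43) and plu at least 1.37-fold lower. The part of these tissue and stage differences in the ratios of the 2 enzyme families was not tested.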

How the data were processed

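The deposited table holds 1 intensity per probe set and array on a linear scale, made by the authors with MAS5, per the submitters' processing notes. The sources used here give no version, target signal or genome build. The mean signal after leaving out 2% of probe sets at each end was 500.1 on both arrays. Of 14010 probe sets, 44 were controls, 12443 named 1 gene, 327 several and 1196 none. Symbols of 12394 probe sets were updated by gene ID to the RefSeq table of Release 6 plus ISO1 MT, used only for names and gene order.

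The probe set with the highest mean signal stood for its gene. Ratios, floor and the 2-fold rule of size are those given with the results. The members, lists and rules were chosen with earlier results of these data known. Named by rule were members at least 2-fold apart, the highest, lowest and brightest member of each class, members with several probe sets and list genes at least 2-fold apart. Any other gene was named after its values were seen. Promoter and protein sequences were not used here.

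Alternatives were centring, quantile normalisation, loess (span 0.3), a 25th or 60th percentile floor, the mean of all probe sets, plain probe sets only, and limits of 1.5-fold and 3-fold. The ratio steps were tested on simulated data. The software was Python 3.11.15 with numpy 2.4.6, pandas 2.3.3 and statsmodels 0.14.6.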

Additional observations from a re-analysis of the deposited data

How the results depend on the processing

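No paired analysis was possible because each genotype has 1 array, and for the same reason no array could be left out. Counts at least 2-fold higher were 2 glutathione transferases, 2 UDP-glycosyltransferases and 275 genes in all, and counts lower were 0, 1 and 473. With centring 1 glutathione transferase (GstE2) and 1 UDP-glycosyltransferase (Ugt305A1) were higher, and with quantile normalisation or loess 1 glutathione transferase, again GstE2, with GstD3 just under the limit. A floor at the 25th percentile gave 3 lower glutathione transferases (GstD5, GstD11 and GstE4), 3 higher UDP-glycosyltransferases with the addition of Ugt307A1 (2.50-fold), and 607 higher genes in all, and it moved Ugt35B1 from -0.07 to -0.87. A floor at the 60th percentile left 0 glutathione transferases and 1 UDP-glycosyltransferase, Ugt36A1, higher, 0 UDP-glycosyltransferases lower, and 119 genes higher and 267 lower in all. Plain probe sets left 1 UDP-glycosyltransferase higher. A 1.5-fold limit gave 7 glutathione transferases lower, 7 UDP-glycosyltransferases higher and 3 lower, and 1005 genes higher and 1171 lower in all. A 3-fold limit gave 0 higher in either family and 35 higher and 136 lower in all, Ugt316A1 being the 1 member past it. Chosen after the data were examined were genes above the floor on both arrays and genes with signals averaging 500 or more. In the latter, 0 glutathione transferases and 0 UDP-glycosyltransferases were higher, 0 UDP-glycosyltransferases were lower, and 82 genes were higher and 164 lower in all. There the GstD median turned to 0.27, which is GstD1 alone, and the Ugt35 median to 0.40, which is Ugt35A1 alone, as it was with a floor at the 60th percentile. Of the 47 measured members, the sign of the ratio changed under scaling for GstD1 with quantile normalisation and for GstZ2 with loess. GstO2 turned to 0.70 with plain probe sets. With 1 array per genotype, precision is limited by the number of arrays, and ratios of probe sets near the floor are the least certain.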
